A study of Mus musculus with 90 samples.

Results

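Ttr, Kl, Folr1, Aqp1, Kcne2 and Clic6 are genes that the epithelium of the mouse choroid plexus expresses strongly. They were taken as the rows of the count table whose Ensembl gene ID maps to these symbols, which gave 6 of 37991 gene rows, each followed through all 90 libraries. Their identifiers are ENSMUSG00000061808 for Ttr, ENSMUSG00000058488 for Kl, ENSMUSG00000001827 for Folr1, ENSMUSG00000004655 for Aqp1, ENSMUSG00000039672 for Kcne2 and ENSMUSG00000022949 for Clic6. The animals were territory-holding resident C57BL/6J males, each housed with a C57BL/6J female until shortly before the trial. A resident was exposed for 5 min either to an unfamiliar BALB/cJ male inside a wire mesh cage (intruder) or to such a cage with only a paper cup in it (control), and amygdala, frontal cortex and hypothalamus were dissected 30, 60 or 120 min later. The labels give 32 animals, of which 28 have libraries of all 3 regions, and no age. There were 18 groups, 1 for each region, time and condition, and 5 libraries in all of them but hypothalamus 30 min controls (3) and both frontal cortex groups at 120 min (6 each). The labels name no mutant or transgene.

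The choroid plexus hangs in the ventricles of the brain. Its epithelium secretes cerebrospinal fluid and guards the border between blood and that fluid, and it is not part of any of the 3 regions named here, although ventricles lie close to some of them. Ttr encodes transthyretin, a secreted carrier of thyroxine and of retinol-binding protein that is the best known product of the tissue. Kl encodes Klotho, a co-receptor for fibroblast growth factor 23. Folr1 encodes a folate receptor that carries folate into the fluid, Aqp1 a water channel of the apical membrane, Kcne2 an accessory subunit of potassium channels, and Clic6 a member of the intracellular chloride channel family. Aqp1, Kl and Clic6 are also known in other cells, Kl for example in neurons.

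Because these genes move together in many libraries, the bases upstream of their starts are shown for the 3 of them that were matched in the RefSeq promoter table (GRCm38.p6). Each run is the 250 bases before an annotated start on the plus strand, 5′ to 3′, with every CG dinucleotide in capitals. The window of Kl is chr5:150952357-150952606, that of Aqp1 is chr6:55336049-55336298 and that of the first of 2 Kcne2 starts is chr16:92292139-92292388.
Kl: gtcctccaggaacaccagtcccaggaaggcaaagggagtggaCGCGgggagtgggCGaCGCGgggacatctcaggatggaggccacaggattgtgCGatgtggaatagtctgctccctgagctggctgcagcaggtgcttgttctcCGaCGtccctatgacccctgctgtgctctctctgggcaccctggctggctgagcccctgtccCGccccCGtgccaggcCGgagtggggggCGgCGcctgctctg
Aqp1: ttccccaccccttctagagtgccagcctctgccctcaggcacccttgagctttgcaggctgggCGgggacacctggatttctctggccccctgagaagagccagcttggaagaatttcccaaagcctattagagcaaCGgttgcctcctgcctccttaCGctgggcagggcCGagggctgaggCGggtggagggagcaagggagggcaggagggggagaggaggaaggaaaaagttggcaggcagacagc
Kcne2: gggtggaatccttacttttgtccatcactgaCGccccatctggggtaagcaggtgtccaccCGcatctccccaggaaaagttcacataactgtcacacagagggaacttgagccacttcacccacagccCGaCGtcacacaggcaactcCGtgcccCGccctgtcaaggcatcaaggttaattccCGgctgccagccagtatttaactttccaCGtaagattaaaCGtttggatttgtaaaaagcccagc
The Kl window held 13 CG dinucleotides, the Kcne2 window 9 and the Aqp1 window 5, against a median of 6 over 32851 promoters; 31.5%, 40.3% and 55.6% of all promoters had at least as many. The window of the other Kcne2 start held 1, and 92.1% of promoters had at least as many. On both strands 3 short motifs were searched: TAATCC, a core bound by OTX-type homeodomain factors, TGTTTAC, a forkhead core, and the TATA box TATAAA. None of them was in any of these windows or in that of the other Kcne2 start, while 6.25%, 3.17% and 12.4% of all promoters held them in the same 250 bases. This says only that these letters are not in these windows.

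Library depth was 38.6 to 58.86 M reads assigned to genes, with a median of 49.01 M. Levels are given as CPM, the reads of a gene scaled to a common library total after TMM normalization. Kcne2 had regional medians of 4.5 to 8.5 reads and Folr1 in amygdala a median of 8 reads, so their low values rest on a few reads. Nothing in the labels says how the regions were cut or whether counting used strand. The column headers carry one tag on all 30 min libraries and another on all 60 and 120 min libraries; its meaning is not given in the sources used here and it cannot be told apart from time.

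Ttr had by far the widest range of the 6 genes. It ran from 0.196 CPM, or 9 reads, in frontal cortex 60 min control replicate 1 to 1649 CPM, or 83681 reads, in amygdala 60 min control replicate 5, which is an 8407-fold span. The median was 6.68 CPM in amygdala (0.407 to 1649, n = 30), 7.43 CPM in frontal cortex (0.196 to 299, n = 32) and 2.0 CPM in hypothalamus (0.281 to 179, n = 28). Above 100 CPM were 10 libraries: 4 of amygdala, 5 of frontal cortex and 1 of hypothalamus, 7 of them controls and 3 intruder libraries. At the other end, 17 amygdala, 19 frontal cortex and 23 hypothalamus libraries were below 10 CPM. In bulk tissue, fewer cells of a type and less RNA per cell cannot be told apart.

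Folr1 and Kcne2 were low outside the libraries with high Ttr. Folr1 had a median of 0.169 CPM in amygdala (0 to 11.9), 0.299 CPM in frontal cortex (0.0872 to 2.52) and 0.538 CPM in hypothalamus (0.210 to 1.23). Kcne2 had a median of 0.172 CPM in amygdala (0.0454 to 11.1), 0.0945 CPM in frontal cortex (0.0212 to 1.47) and 0.166 CPM in hypothalamus (0.0382 to 1.60). For Kcne2 the regions overlapped over most of their range. For Folr1 the median in amygdala (0.169 CPM) lay below the lowest hypothalamus library (0.210 CPM), although the highest amygdala libraries exceeded all of hypothalamus. The highest value of both genes was in amygdala 60 min control replicate 5.

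Kl and Clic6 had a median that differed between frontal cortex and the other regions. Kl had a median of 9.24 CPM in amygdala (6.24 to 67.0), 2.70 CPM in frontal cortex (1.35 to 11.7) and 9.42 CPM in hypothalamus (6.52 to 16.4). Clic6 had a median of 15.1 CPM in amygdala (5.67 to 44.2), 2.69 CPM in frontal cortex (0.277 to 14.1) and 22.7 CPM in hypothalamus (13.8 to 35.7). Aqp1 had the opposite order, with a median of 0.455 CPM in amygdala (0.167 to 8.27), 1.04 CPM in frontal cortex (0.218 to 3.74) and 0.260 CPM in hypothalamus (0.128 to 1.09). Per kilobase of merged exon (Gencode M21), Ttr had the highest median level of the 6 in amygdala and frontal cortex, at 5.64 and 6.27 CPM per kb, and Clic6 in hypothalamus, at 5.81 against 1.68 CPM per kb for Ttr. Folr1, Aqp1 and Kcne2 had medians of 0.0535 to 0.395 CPM per kb in all 3 regions, and Kl of 0.289 to 1.01 CPM per kb.

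**Figure D1:**
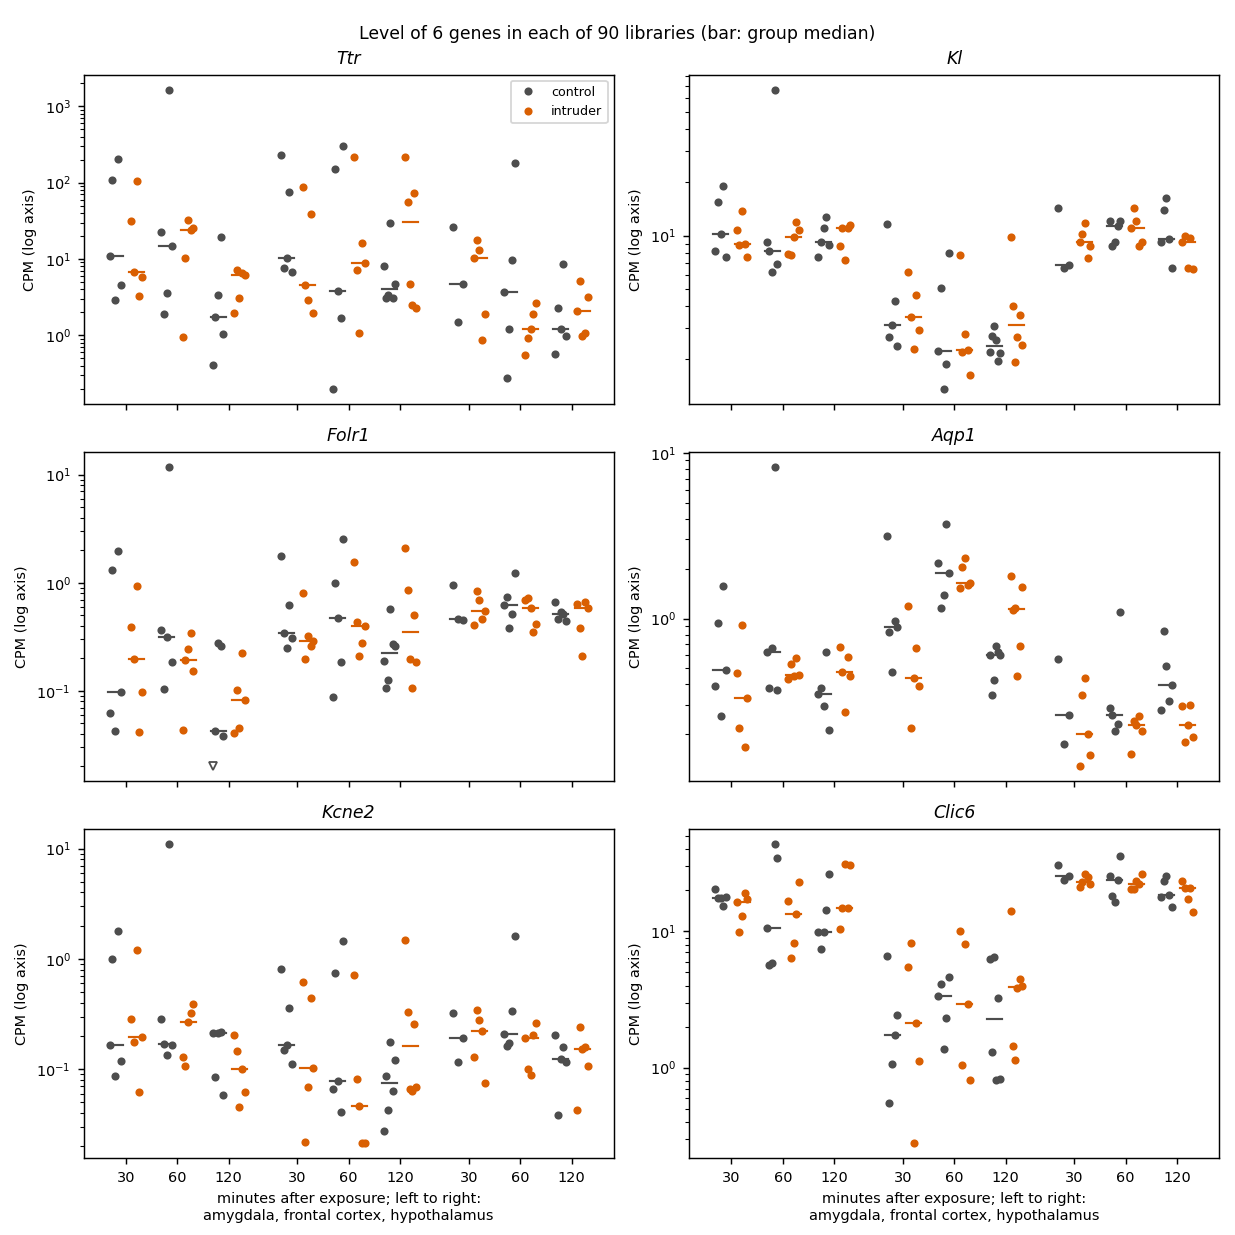
Level of each gene in every library, in CPM on a log axis; each point is 1 library, grey for control and orange for intruder, bars are group medians, and the open triangle marks a library with 0 reads. Within each panel the groups run from amygdala over frontal cortex to hypothalamus, each at 30, 60 and 120 min; Ttr spreads from 0.196 to 1649 CPM while Clic6 in hypothalamus stays between 13.8 and 35.7 CPM.

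The single highest library, amygdala 60 min control replicate 5, was high in all 6 genes. Ttr was 1649 CPM there, against 22.5, 1.92, 3.54 and 14.7 CPM in the other controls of its group. Kl was 67.0 CPM, against 9.23, 8.16, 6.24 and 6.90 CPM. Folr1 was 11.9 CPM, against 0.369, 0.105, 0.312 and 0.186 CPM. The library was thus alone in these genes, far above 4 libraries that lay close to each other in Kl. Aqp1 was 8.27 CPM, with 0.371 to 0.668 CPM in the others, and Kcne2 was 11.1 CPM, with 0.134 to 0.282 CPM in the others. Clic6 was 44.2 CPM, with 5.67, 5.86, 10.6 and 34.6 CPM in the others, so that control replicate 6 came close to it in this gene alone of the 6.

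Of a further 26 choroid plexus genes, 25 had their highest value of the group in the same library. The difference in log2(CPM + 0.1) from the median of the other 4 controls, which understates the ratio of low genes, had a median of 2.63 over the list. It was 5.76 for the bicarbonate transporter gene Slc4a5 (10.6 against 0.0979 CPM), 5.67 for Mfrp (12.1 against 0.140 CPM), 4.46 for the tight junction gene Cldn2 (12.5 against 0.471 CPM) and 3.89 for the transcription factor gene Otx2 (7.58 against 0.417 CPM). The exception was Htr2c, a serotonin receptor gene that neurons also express, at 154 CPM in this library and a median of 154 CPM in the others. Other marker lists stood higher there too: all 8 leptomeningeal genes were highest of the group, with a median difference of 1.39 on the same scale, and 7 of 8 genes of ciliated ependymal cells, with a median of 0.55. Of 6 endothelial genes 4 were highest, with a median difference of 0.44, and of 5 blood genes 1, with a median of 0.20. Thalamic, hippocampal and hypothalamic genes had medians of 0.52, 0.41 and 0.38. Other lists were lower there, with medians of -0.51 for cortical, -0.56 for amygdala and -0.26 for habenular genes. The part of these cell types in the values of the 6 genes was not tested.

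The other 9 libraries above 100 CPM of Ttr showed the same genes at lower levels. Ttr was 107 and 206 CPM in amygdala 30 min control replicates 2 and 4, and 105 CPM in intruder replicate 3 of that time. In frontal cortex it was 228 CPM in 30 min control replicate 1, 149 and 299 CPM in 60 min control replicates 2 and 6, 219 CPM in 60 min intruder replicate 1 and 214 CPM in 120 min intruder replicate 1. In hypothalamus it was 179 CPM in 60 min control replicate 6. All 10 libraries were above their region's median in Kl, Folr1, Aqp1 and Kcne2, and 9 of 10 in Clic6.

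The uncorrected ratio of Folr1 to Ttr had the smallest relative range across these 10 libraries, which the Ttr level had picked. There were 8.08 CPM of Folr1 per 1000 CPM of Ttr at the median, with a range of 6.65 to 12.4. For Kcne2 the median was 6.80 and the range 3.26 to 11.3, with the 4 lowest values in frontal cortex. For Aqp1 the median was 7.68 and the range 5.02 to 13.9. The region's own level weighs on these ratios. After the regional median had been subtracted from both genes, Folr1 had 7.40 CPM per 1000 CPM of Ttr at the median (3.90 to 11.5), Kcne2 6.65 (2.93 to 10.4) and Aqp1 4.71 (0.799 to 9.63). On the same measure Kl had 35 CPM per 1000 CPM of Ttr at the median (15.3 to 61.5), and Clic6 17.8 (-22.5 to 73.5).

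The other genes were also looked at in the 24 libraries with under 2 CPM of Ttr. Folr1 was 0 to 0.105 CPM in the 6 amygdala libraries of this kind, 0.0872 to 0.288 CPM in the 4 of frontal cortex and 0.210 to 0.744 CPM in the 14 of hypothalamus. The amygdala and hypothalamus ranges do not overlap. Kl was 7.57 to 9.24 CPM, 1.89 to 2.91 CPM and 6.55 to 16.4 CPM in the same libraries, close to its level elsewhere in each region. Aqp1 was 0.212 to 0.670 CPM in amygdala, 0.391 to 3.74 CPM in frontal cortex and 0.150 to 0.515 CPM in hypothalamus. Kcne2 was 0.0579 to 0.213 CPM, 0.0411 to 0.103 CPM and 0.0750 to 0.221 CPM, with medians of 0.149 CPM in amygdala and 0.156 CPM in hypothalamus. Clic6 was 5.67 to 26.4 CPM, 1.11 to 8.05 CPM and 15.2 to 25.7 CPM, where amygdala overlapped both other regions and frontal cortex lay below hypothalamus. These libraries were chosen by their Ttr value, so the ranges are given without a test.

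Across the libraries of a region, each of the other 5 genes was set against Ttr on the scale log2(CPM + 0.1). In amygdala 4 of 5 genes rose with Ttr (n = 30): Spearman's rho was 0.84 for Folr1 (permutation p = 1e-05, the smallest that the resampling can give; adjusted over 15 relations 5.00e-05), 0.72 for Kcne2 (adjusted p = 7.50e-05), 0.62 for Aqp1 (adjusted p = 0.000875) and 0.60 for Kl (adjusted p = 0.00120). Pearson's r was 0.91, 0.86, 0.79 and 0.79, and 0.85, 0.73, 0.59 and 0.61 without the 2 libraries farthest from the median of Ttr. Clic6 had a rho of 0.15 (adjusted permutation p = 0.444) and an r of 0.31.

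In frontal cortex 3 of 5 genes rose with Ttr (n = 32): rho was 0.82 for Folr1 and 0.72 for Kcne2 (both adjusted permutation p = 5.00e-05) and 0.64 for Kl (adjusted p = 0.000450). Pearson's r was 0.89, 0.87 and 0.81, and 0.86, 0.84 and 0.76 without the 2 farthest libraries. Aqp1 had a rho of 0.21 (adjusted p = 0.280), which covered opposite relations at single times: rho was 0.85 at 30 min (n = 10), -0.61 at 60 min (n = 10) and 0.45 at 120 min (n = 12). Clic6 had a rho of 0.24 (adjusted p = 0.239).

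In hypothalamus 2 of 5 genes rose with Ttr by rank (n = 28): Clic6 with a rho of 0.53 (adjusted permutation p = 0.00752) and Kcne2 with 0.42 (adjusted p = 0.0442). By Pearson's r 4 of 5 passed, Kcne2 at 0.69, Clic6 at 0.58, Aqp1 at 0.49 and Folr1 at 0.42, but without the 2 farthest libraries the values were 0.38, 0.32, 0.08 and 0.02. The relations of Aqp1 and Folr1 there thus rest on those libraries, 60 min control replicate 6 among them. Within times in hypothalamus the rho of Kcne2 was 0.69, 0.81 and -0.12 at 30, 60 and 120 min, that of Clic6 0.31, 0.87 and 0.22, and that of Folr1 0.62, -0.14 and -0.19. Within times the relations in amygdala and frontal cortex kept their sign for Folr1, with rho of 0.60 to 0.90, and for Kl, with 0.45 to 0.82. Kcne2 had 0.28 to 0.94, lowest at 120 min in amygdala, where Ttr did not exceed 19.1 CPM.

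**Figure D2:**
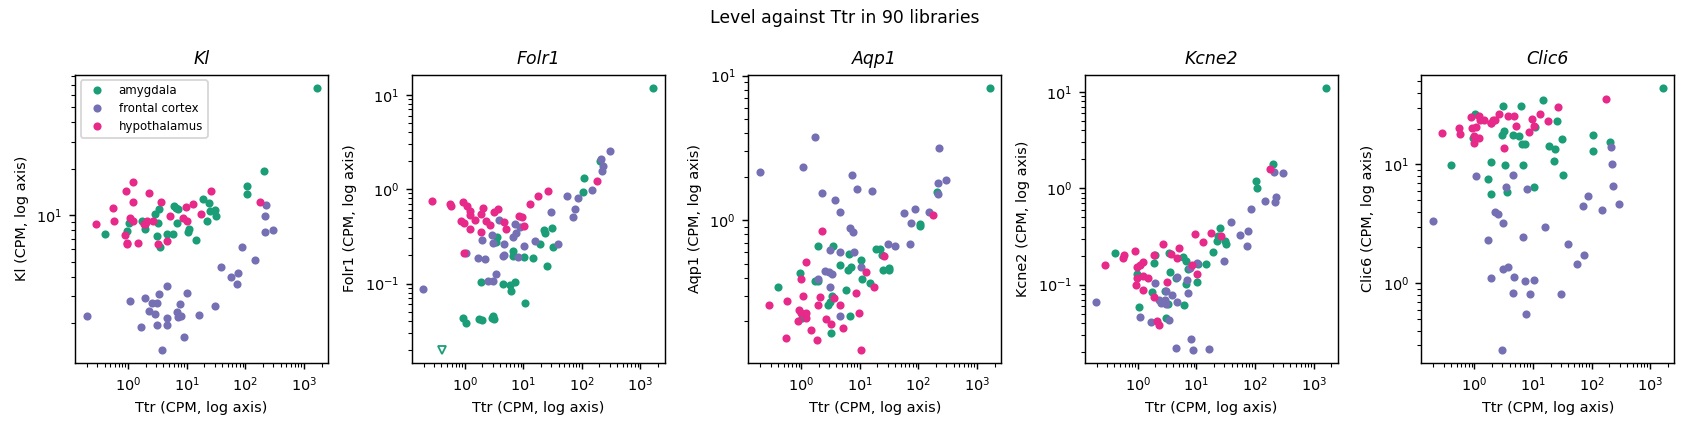
Level of each of the other 5 genes against Ttr, both in CPM on log axes; each point is 1 of 90 libraries, coloured by region, and the open triangle marks 0 reads of Folr1. Folr1 of all regions lies on 1 rising band above 100 CPM of Ttr, whereas most frontal cortex libraries lie below the other regions in Clic6 and Kl.

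Ttr was compared between the regions of an animal. The 10 libraries above 100 CPM came from 9 animals, of which 2 had no hypothalamus library. The 60 min control animal 6 alone had 2 of these libraries, with 299 CPM in frontal cortex, 179 CPM in hypothalamus and 14.7 CPM in amygdala. The 60 min control animal 5, with 1649 CPM in amygdala, had 1.69 CPM in frontal cortex and 9.60 CPM in hypothalamus. The 60 min intruder animal 1, with 219 CPM in frontal cortex, had 0.953 CPM in amygdala and 0.555 CPM in hypothalamus. Other animals were raised in a second region below 100 CPM: the 30 min control animal 4 had 206 CPM in amygdala and 75.1 CPM in frontal cortex, and the 120 min control animal 4 had the most Ttr of its group in all 3 regions (19.1, 30.0 and 8.54 CPM). The mean log2 level of the 6 genes, as a deviation from the group mean, was related between amygdala and hypothalamus of the same animal by rank, with rho = 0.63 over 28 animals (permutation p = 0.000480, adjusted over 3 pairs of regions 0.00144). Pearson's r was 0.38 (adjusted permutation p = 0.167), and 0.50 without the 2 animals farthest from the median in amygdala. Amygdala and frontal cortex had rho = -0.20 (adjusted permutation p = 0.416) and r = -0.24 (adjusted permutation p = 0.299) over 30 animals. Frontal cortex and hypothalamus had rho = 0.06 (adjusted permutation p = 0.778) and r = 0.18 (adjusted permutation p = 0.355) over 28 animals.

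**Figure D3:**
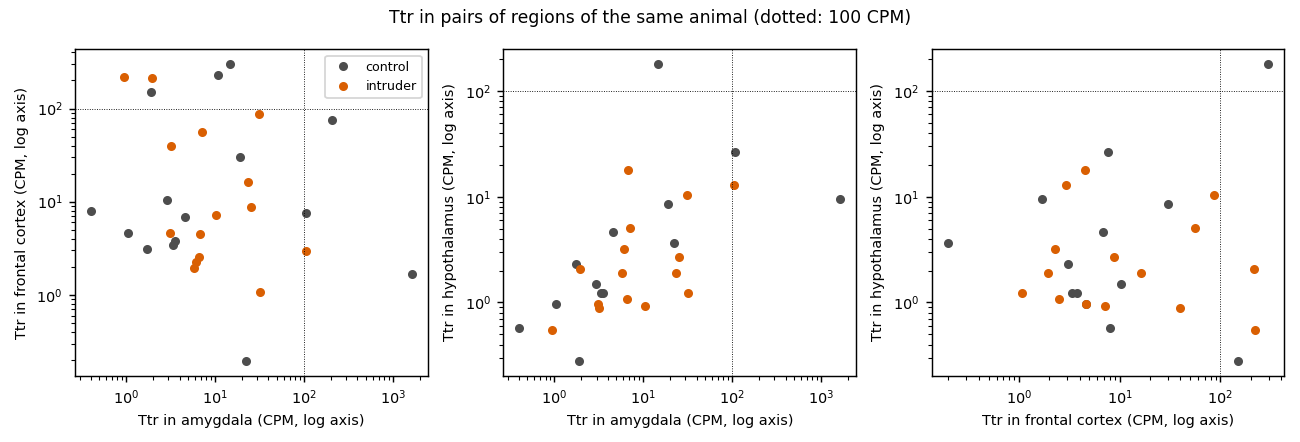
Ttr in 2 regions of the same animal, in CPM on log axes; each point is 1 animal, grey for control and orange for intruder, and dotted lines mark 100 CPM. The animal with 1649 CPM in amygdala had 1.69 CPM in frontal cortex, and a single animal exceeds 100 CPM in 2 regions, frontal cortex and hypothalamus.

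The intruder was compared with the control at each time in each region to ask whether the encounter changed these genes. None of the 6 passed edgeR's quasi-likelihood test in any of the 9 comparisons, at an adjusted p below 0.05 over all genes tested. All 6 passed the filter on low counts in each region. At an unadjusted p below 0.05, 12 of the 54 values passed, 5 of them in amygdala at 60 min. The share of all genes with such a p was 7.13% in that comparison and 1.92% to 15.1% over the 9. In 0 of 54 values were the intruder and control libraries without overlap. The share of all genes without overlap was not determined, so this count says nothing particular about the 6. DESeq2 and limma voom called 0 of 54 as well. Over all genes the share called was 0% at 30 and 60 min in each region and at 120 min in frontal cortex, 0.538% at 120 min in amygdala and 0.192% at 120 min in hypothalamus.

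The largest differences were at 60 min, in the 2 regions where 1 control library was high. In amygdala at 60 min Ttr was 22.5, 1.92, 3.54, 1649 and 14.7 CPM in controls and 0.953, 10.4, 32.0, 23.6 and 25.3 CPM in intruder libraries. Apart from that 1 control the groups overlapped, and 3 of 5 intruder libraries were above each of the other 4 controls, whose median was 9.12 CPM against 23.6 CPM in the intruder group. The fitted log2 fold change was -4.19 ± 1.5 (SE; adjusted p = 0.643) with all libraries and 0.79 ± 1.15 (adjusted p = 0.915) without control replicate 5. With every library kept it was -0.90 with limma voom, -1.13 with the replicate number as a block and -0.30 with the library index as a block. Kl moved from -1.01 to 0.34, Folr1 from -3.70 to -0.30, Aqp1 from -2.07 to -0.06, Kcne2 from -3.27 to 0.37 and Clic6 from -0.56 to -0.06 when the same library was left out.

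In hypothalamus at 60 min Ttr was 3.69, 0.281, 1.22, 9.60 and 179 CPM in controls and 0.555, 0.924, 1.23, 1.91 and 2.67 CPM in intruder libraries. The intruder libraries lay inside the control range. The log2 fold change was -4.73 ± 1.24 (SE), with an unadjusted p of 0.000788 and an adjusted p of 1 in edgeR, and -1.35 ± 0.93 without control replicate 6. With every library kept it was -1.88 with limma voom, -1.10 with the replicate number as a block and -4.34 with the library index as a block. Kcne2 had a log2 fold change of -1.54 ± 0.55 there and -0.38 ± 0.43 without that library, and Aqp1 had -0.93 ± 0.44 and -0.18 ± 0.38. Kl (0.05 ± 0.22), Clic6 (-0.10 ± 0.16) and Folr1 (-0.34 ± 0.31) had smaller values, although Clic6 too was highest of its group in control replicate 6 (35.7 CPM).

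In frontal cortex at 120 min the log2 fold change was above 0 for all 6 genes. The controls there shared a single first library index and the intruder libraries another, so the index cannot be told apart from the condition. Ttr was 7.99, 3.07, 3.4, 30.0, 3.08 and 4.65 CPM in controls, with a median of 4.02, and 214, 56.0, 4.66, 2.52, 72.0 and 2.26 CPM in intruder libraries, with a median of 30.4. Of the intruder libraries 3 were above every control and the other 3 lay among or below them. The log2 fold change was 2.76 ± 1.36 (adjusted p = 0.935) and 1.67 ± 1.35 without intruder replicate 1. Aqp1 was 0.344 to 0.681 CPM in controls and 0.448 to 1.8 CPM in intruder libraries, with a log2 fold change of 1.04 ± 0.40 (adjusted p = 0.831) and 0.84 ± 0.42 without that library. Kl, Folr1, Kcne2 and Clic6 had log2 fold changes of 0.75, 1.40, 2.13 and 0.64 there, with adjusted p of 0.901 to 0.993 in edgeR. Without the same library the values of these 4 were 0.25, 0.53, 0.83 and -0.08.

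In the remaining 6 comparisons Ttr had log2 fold changes of -1.27 to -0.02. At 60 min in frontal cortex its value of -0.84 ± 1.35 became -3.44 ± 1.54 without intruder replicate 1 and 0.38 without control replicate 6, so that the sign depended on which of these high libraries was present. In frontal cortex at 30 min Aqp1 had a log2 fold change of -1.10 ± 0.43 (adjusted p = 0.771), and -0.43 ± 0.40 without control replicate 1. In hypothalamus at 120 min Aqp1 was 0.279, 0.839, 0.515, 0.316 and 0.395 CPM in controls and 0.295, 0.180, 0.229, 0.299 and 0.193 CPM in intruder libraries. The groups touched only at their edges, with a log2 fold change of -0.97 ± 0.44 (adjusted p = 0.412), while Ttr had -0.14 ± 1.21. In the same comparison 8 leptomeningeal genes had a median of -1.26 (6 with unadjusted p below 0.05), 5 blood genes -0.57 (5) and 6 endothelial genes -0.36 (6, of which 2 were called lower). Their part in the value of Aqp1 was not tested. Averaged over the 3 times, no gene of the 6 passed in any region (all adjusted p at least 0.991; 0% of all genes called), Ttr having 0.22 ± 0.77 in frontal cortex, -1.78 ± 0.82 in amygdala and -1.72 ± 0.69 in hypothalamus. The average was -0.12 in amygdala without 60 min control replicate 5, -0.59 in hypothalamus without 60 min control replicate 6 and -0.65 in frontal cortex without 60 min intruder replicate 1.

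**Figure D4:**
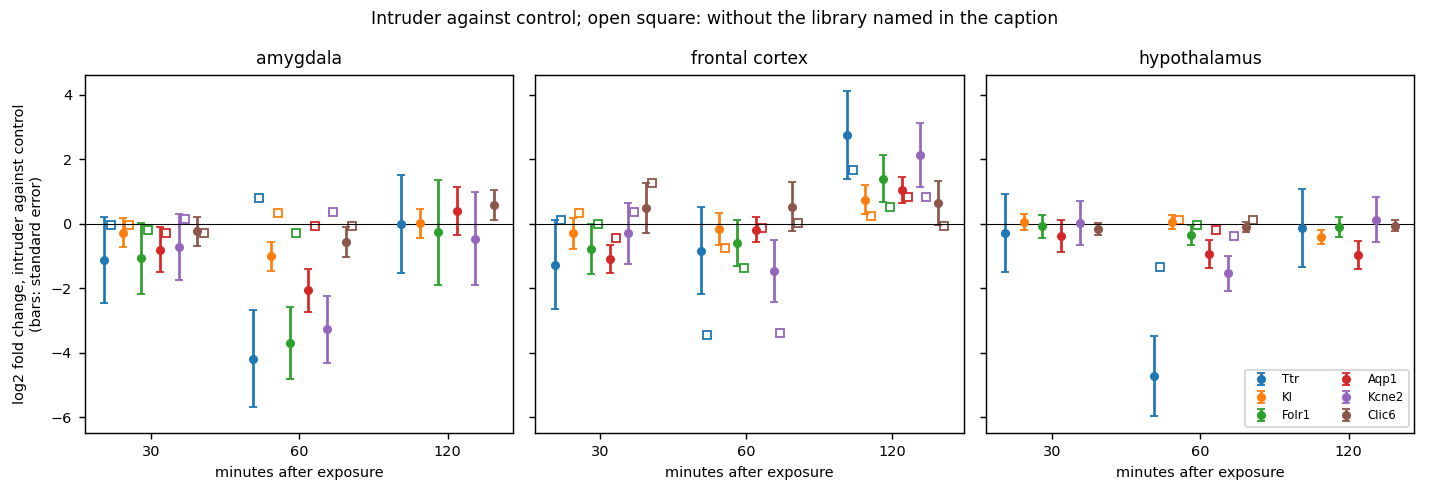
Log2 fold change of intruder against control for the 6 genes at each time and region, with standard errors from edgeR (5 against 5 libraries, or 3 against 5 for hypothalamus at 30 min and 6 against 6 for frontal cortex at 120 min). Open squares are the values without control replicate 4 (amygdala, 30 min), control replicate 5 (amygdala, 60 min), control replicate 1 (frontal cortex, 30 min), intruder replicate 1 (frontal cortex, 60 and 120 min) or control replicate 6 (hypothalamus, 60 min); Ttr in amygdala at 60 min moves from -4.19 to 0.79.

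The intruder effect was not shown to differ between times or between regions for any of the 6. The test between times called 0 of 6 in each region, with unadjusted p below 0.05 for Kcne2 and Aqp1 in frontal cortex and for Ttr in hypothalamus; the share of all genes called was 0% in amygdala and frontal cortex and 0.0113% in hypothalamus. The test between regions called 0 of 6 at each time and 0% of all genes. Its smallest p among the 6 was that of Aqp1 at 120 min (unadjusted p = 0.000722, adjusted p = 0.748 in edgeR), where the log2 fold change was 1.04 in frontal cortex, 0.40 in amygdala and -0.97 in hypothalamus.

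A wider choroid plexus list was followed through the same comparisons. Of its 26 genes, 24 were tested in amygdala and frontal cortex and 26 in hypothalamus, and 0 were called in any of the 9 comparisons. Its median log2 fold change was -0.79 in amygdala at 60 min, with all genes at 0.00 and 9 of 24 list genes at an unadjusted p below 0.05, but -0.09 in hypothalamus at 60 min, where 4 of 26 genes had such a p. It was -0.20 in hypothalamus at 120 min, with 6 of 26. Of all genes 7.13%, 2.22% and 11.5% had such a p in these 3 comparisons. At 120 min in frontal cortex it was 0.58, with 6 of 24 and 5.34% of all genes, where the median was 0.39 for 8 ependymal, 0.40 for 6 thalamic and 0.58 for 2 habenular genes, 4, 4 and 1 of them at an unadjusted p below 0.05. The part of those cells and regions in the values of the 6 genes was not tested. A list of 10 genes for proteins that bind or serve the products of the 6, such as Rbp4, whose protein travels with transthyretin, and the folate transporters Slc46a1 and Slc19a1, gave 1 call in the 9 comparisons. It was Slc5a3, a sodium and inositol cotransporter gene, in amygdala at 120 min (log2 fold change 0.49 ± 0.10, adjusted p = 0.0308 in edgeR).

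Among control animals the time of dissection was tested within each region. One of the 6 genes differed between times, Aqp1 in frontal cortex (edgeR adjusted p = 0.00228), where 33.4% of all genes did. Aqp1 was 3.16, 0.829, 0.479, 0.962 and 0.886 CPM at 30 min, 2.16, 1.15, 1.38, 3.74 and 1.89 CPM at 60 min and 0.60, 0.344, 0.425, 0.681, 0.628 and 0.604 CPM at 120 min. Every library at 60 min was above every library at 120 min, and the median at 60 min was 3.14 times that at 120 min. The 5 intruder libraries at 60 min, which entered the fit but not the contrast, lay at 1.52 to 2.33 CPM. Those at 120 min reached 1.8 CPM and overlapped them, and the ratio of medians was 1.46. Ttr was 0.196 and 1.69 CPM in the 60 min controls with 2.16 and 3.74 CPM of Aqp1, so that Aqp1 was high there while Ttr was low. In the same test 4 of 5 blood, 4 of 8 leptomeningeal and 3 of 6 endothelial genes were called, 1 of 8 ependymal and 4 of 24 choroid plexus genes; the part of these cell types in the values of Aqp1 was not tested. In amygdala 0 of 6 genes passed (0.232% of all genes called) and in hypothalamus 0 of 6 (0.181%), although Ttr, Folr1, Aqp1 and Kcne2 in amygdala had unadjusted p of 0.00297 to 0.00343 in edgeR with the high 60 min library present. In hypothalamus, also with its high 60 min control present, the unadjusted p was 0.00882 for Ttr and 0.00741 for Kcne2.

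Between regions of control animals, Kl and Clic6 were lower in frontal cortex than in either other region. Against frontal cortex, Clic6 was higher by 3.01 ± 0.32 on the log2 scale in hypothalamus (edgeR adjusted p = 2.82e-11) and by 2.55 ± 0.31 in amygdala (adjusted p = 1.88e-09). Kl was higher by 1.54 ± 0.30 in hypothalamus (adjusted p = 1.38e-05) and by 1.91 ± 0.29 in amygdala (adjusted p = 3.00e-07). Aqp1 was lower in hypothalamus than in frontal cortex, at -1.49 ± 0.42 (adjusted p = 0.00136). Ttr, Folr1 and Kcne2 did not pass edgeR's test in either comparison, at -1.84 ± 0.99, 0.21 ± 0.58 and -0.01 ± 0.96 for hypothalamus and 0.37 ± 0.87, 0.20 ± 0.63 and 1.37 ± 0.65 for amygdala. DESeq2 called Ttr in hypothalamus (-1.83, adjusted p = 0.0398) and Kcne2 in amygdala (1.39, adjusted p = 0.0226). Aqp1 was -0.45 ± 0.37 in amygdala against frontal cortex and not called in edgeR, -0.81 (adjusted p = 0.0356) with limma voom and -1.29 (edgeR adjusted p = 2.31e-06) without the control libraries above 100 CPM of Ttr. Without those libraries Folr1 was called in both comparisons, at 0.98 in hypothalamus (edgeR adjusted p = 0.00261) and -1.17 in amygdala (adjusted p = 0.00673), and Kcne2 in hypothalamus at 0.81 (adjusted p = 0.0122). The libraries left out were chosen by their Ttr values, with which Folr1 and Kcne2 rose in amygdala and frontal cortex. The p-values without them therefore cannot be read as a test of the region. With all libraries 3 of 6 and 2 of 6 genes were called in edgeR, where 82.2% and 67.8% of all genes were.

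Between amygdala and hypothalamus 2 of 6 genes were called, where 72.3% of all genes were, and neither call held without 1 library. Ttr was higher in amygdala by 2.22 ± 1.02 (edgeR adjusted p = 0.0497) and Aqp1 by 1.04 ± 0.43 (adjusted p = 0.0291). Without amygdala 60 min control replicate 5 the values were 0.56 and 0.37 and neither passed; of 28 libraries left out in turn, 15 ended the call of Ttr and 5 that of Aqp1. With the animal as a block, since the 3 regions come from the same animals, they were 1.56 (adjusted p = 0.159) and 0.61 (adjusted p = 0.164). With limma voom neither was called either, at 1.45 (adjusted p = 0.361) and 0.71 (adjusted p = 0.138), while Folr1 (-1.47, adjusted p = 0.0303) and Clic6 (-0.64, adjusted p = 0.0101) were. DESeq2 called Ttr and Aqp1 and also Kcne2 (1.38, adjusted p = 0.0319). With the animal as a block Clic6 was lower in amygdala by -0.64 (adjusted p = 0.0484), against -0.46 ± 0.29 without the block. Folr1 had -0.01 ± 0.35 with all libraries and -2.15 (adjusted p = 9.54e-07) without the control libraries above 100 CPM of Ttr, a choice made on the Ttr values themselves.

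The wider lists differed between regions in both directions. Of the 26 choroid plexus genes, 17 were called between hypothalamus and frontal cortex, 10 higher and 7 lower in hypothalamus, and 14 between amygdala and frontal cortex, 12 higher and 2 lower in amygdala. Between amygdala and hypothalamus 16 were called, 9 higher and 7 lower in amygdala. These shares lie below the 82.2%, 67.8% and 72.3% of all genes called. The prolactin receptor gene Prlr was higher by 5.40 ± 0.28 in hypothalamus and the growth factor binding gene Igfbp2 lower by -2.64 ± 0.21. Slc4a5 and Mfrp did not pass in any of the 3 comparisons, with standard errors of 0.71 to 0.81. All 8 ependymal genes were higher in hypothalamus than in frontal cortex, with a median of 2.37, while all 6 endothelial and all 5 blood genes were lower there, with medians of -0.54 and -0.40. Their part in the values of the 6 genes was not tested.

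Likeness to the 6 genes was measured over all genes as Spearman's rho with their mean log2 level within a region, averaged over the 3 regions, as a description without a test. The 8 closest of 16629 other genes were Mfrp (0.76), a membrane frizzled-related gene, F5 (0.73), which encodes coagulation factor V, Calml4 (0.71), Cldn2 (0.70), Drc7 (0.68), Krt18 (0.66), Slc4a5 (0.64) and 1500015O10Rik (0.60). Of these, 7 are among the 26 genes of the choroid plexus list, and Drc7, a gene of the dynein regulatory complex of motile cilia, is not. The 6 genes, each set against the mean of the other 5, had 0.61 for Ttr, 0.57 for Kl, 0.55 for Folr1 and for Kcne2, 0.39 for Aqp1 and 0.24 for Clic6. The libraries share depth, dissection and time, and all values are over the same 90 libraries.

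By list, the median rho was 0.40 for the 24 choroid plexus genes tested and 0.43 for the 8 ependymal genes, against -0.00 for all other genes. Of the choroid plexus genes 66.7% had a rho above 0.3, and 2.21% of all genes did. Otx2, a transcription factor gene of the choroid plexus, had a rho of 0.82 in frontal cortex, 0.84 in amygdala and -0.13 in hypothalamus. The median was 0.10 for the 10 partner genes, 0.07 for leptomeningeal, -0.01 for endothelial and -0.21 for blood genes. The ependymal genes ranged from 0.31 to 0.53, and their part in the values of the 6 genes was not tested.

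**Figure D5:**
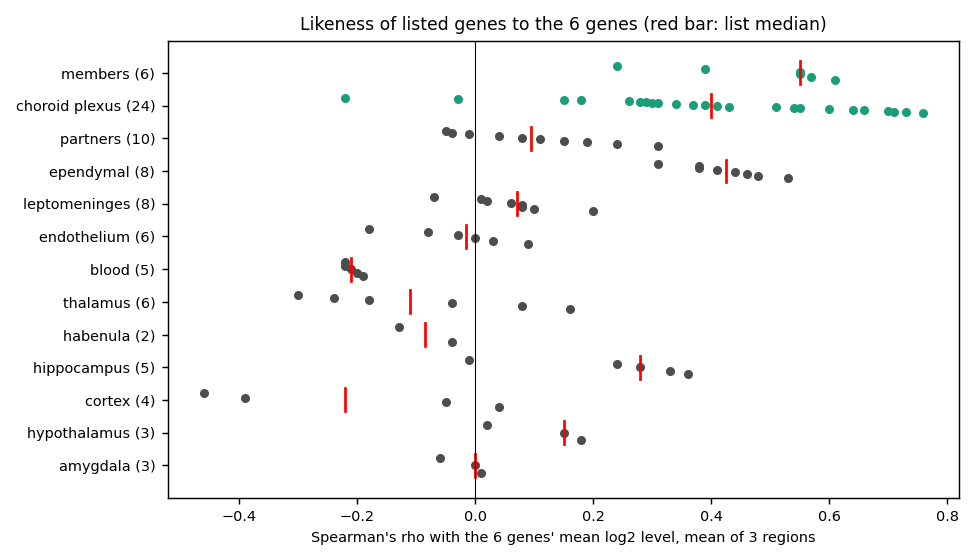
Spearman's rho of each listed gene with the mean log2 level of the 6 genes, as a mean of the 3 regions (each of the 6 against the other 5); each point is 1 gene, red bars are list medians, and the number of genes tested is in parentheses. The medians of choroid plexus genes (0.40) and ependymal genes (0.43) lie to the right of those of the leptomeningeal, endothelial and blood genes. Single choroid plexus genes run from -0.22 to 0.76 and overlap those lists.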

How the data were processed

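RNA from 3 brain regions of 32 mice was sequenced as stranded mRNA libraries with single-end reads, per the labels' protocols; the design text mentions that RNA samples were pooled to make libraries, while each library's label names 1 animal. The deposited file holds whole-number counts per Ensembl gene that the authors made; the submitters' processing notes name CASAVA 1.8.2, TopHat2 2.0.8, HTSeq 0.6.1, edgeR 3.2.4, R 3.0.0 and build NCBIM37. Reads without a gene or with several alignments (8.633% to 14.46% with no gene, 9.786% to 11.5% not unique and 0.6337% to 0.7614% ambiguous) were left out of library sizes, and no column was left unmatched to a sample.

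The counts were tested with edgeR 4.0.16 (R 4.3.3; filterByExpr, TMM, quasi-likelihood F test, Benjamini-Hochberg adjustment over all genes tested, adjusted p below 0.05), in 1 fit per region, 1 per time for differences between regions, and 1 over the control libraries for region against region. DESeq2 1.42.0 and limma 3.58.1 (voom) were alternatives, with RLE scaling, no filter, robust dispersion, blocks for replicate number, library index or animal, and leaving out each library. Standard errors are the absolute log2 fold change divided by the square root of F. The fits were also run on simulated counts with the same small dispersion for every gene. That setting lacks the wide spread of Ttr, so it does not show how the fits behave for such a gene. Correlations used log2(CPM + 0.1) and 100000 permutations, two-sided. The libraries of a group name separate animals; given the note on pooling, p-values measure the spread between these libraries.

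The members and gene lists were chosen with earlier results of these data known, and the 10 libraries above 100 CPM of Ttr were singled out after their values were seen. The genes named are the 6, genes of the lists, and the 8 closest others. The lists are choroid plexus, partner, ependymal, leptomeningeal, endothelial, blood, thalamus, habenula, hippocampus, cortex, hypothalamus and amygdala genes. Replicate numbers were not used to pair control with intruder animals in the main fits. Correlations of deviations ran from -0.661 to 0.688 over 41 pairs, and in 0 of 9 sets did all exceed 0.1. In groups this small such correlations cannot exclude a pairing. Within an animal the labels pair the regions. Gene lengths came from Gencode M21 and promoters from RefSeq GRCm38.p6; no coordinates of the files' build were used.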

Additional observations from a re-analysis of the deposited data

Results flagged for a closer look

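Within groups of 4 to 6 libraries, a library was singled out where its gap to the next took up more of the group's range than Dixon's 95% limit allows. Of 102 such group checks over the 6 genes, 27 singled out a library, each time the highest, in 10 libraries; chance gives about 1 in 20 groups for normally distributed values. CPM values are skewed here and the 6 genes share the libraries, so the chance rate for these checks was not determined.

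Amygdala 60 min control replicate 5 stood apart in Ttr (1649 CPM), Kl (67.0 CPM), Folr1 (11.9 CPM), Aqp1 (8.27 CPM) and Kcne2 (11.1 CPM). Frontal cortex 120 min intruder replicate 1 stood apart in Ttr (214 CPM), Kl (9.85 CPM), Folr1 (2.10 CPM), Kcne2 (1.47 CPM) and Clic6 (14.1 CPM), the sole case of Clic6. Frontal cortex 60 min intruder replicate 1 stood apart in Ttr (219 CPM), Kl (7.80 CPM), Folr1 (1.55 CPM) and Kcne2 (0.714 CPM).

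Frontal cortex 30 min control replicate 1 stood apart in Kl (11.7 CPM), Folr1 (1.76 CPM) and Aqp1 (3.16 CPM). Hypothalamus 60 min control replicate 6 did so in Ttr (179 CPM), Aqp1 (1.09 CPM) and Kcne2 (1.60 CPM), and amygdala 30 min intruder replicate 3 in Ttr (105 CPM) and Kcne2 (1.19 CPM). Also 4 libraries below 100 CPM of Ttr were singled out. These were frontal cortex 120 min control replicate 4 in Ttr (30.0 CPM) and Folr1 (0.571 CPM), amygdala 120 min control replicate 4 in Ttr (19.1 CPM), hypothalamus 120 min control replicate 4 in Ttr (8.54 CPM), and frontal cortex 30 min intruder replicate 1 in Folr1 (0.805 CPM). The libraries of amygdala, frontal cortex and hypothalamus numbered 4 at 120 min come from the same control animal.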

How the results depend on the processing

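No member was called in any of the 9 comparisons of intruder and control under any alternative run: 0 calls among 372 values from other tools, scalings, filters and blocks and 0 among 540 values with 1 library left out (range 0 to 0 in each comparison). The sign is another matter, since 26 and 52 of these values changed it. Ttr in amygdala at 120 min went from -0.02 to 1.10 with limma voom, 0.27 with the library index as a block and 0.68 with the replicate block. In hypothalamus at 120 min it went from -0.14 to 0.27, 0.87 and 0.24 with the same 3, and at 30 min from -0.29 to 0.26 with the replicate block. In frontal cortex at 60 min it went from -0.84 to 0.36 with limma voom and 0.73 with the replicate block. The average over times went from -1.78 to -0.13, -0.14 and -0.33 in amygdala and from -1.72 to -0.57, -1.5 and -0.20 in hypothalamus with limma voom, the index block and the replicate block. The replicate block changed no call of the 9 comparisons.

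With 1 library left out, the log2 fold change of Ttr ranged at 30, 60 and 120 min from -2.49 to -0.04, -4.51 to 0.79 and -0.34 to 1.62 in amygdala, from -2.41 to 0.12, -3.44 to 0.38 and 1.67 to 3.75 in frontal cortex, and from -0.80 to 1.5, -5.07 to -1.35 and -0.58 to 0.97 in hypothalamus. Averaged over times it ranged from -2.24 to -0.12, -0.65 to 0.68 and -1.89 to -0.59. Left out were the libraries of the groups compared.

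Between amygdala and hypothalamus of controls, the count of 2 called genes became 1 with no filter, with robust dispersion, with the animal as a block (replicate block) and without the control libraries above 100 CPM of Ttr, and 0 to 3 with 1 library left out. It was 3 with DESeq2, which added Kcne2, and 2 with limma voom, where Folr1 and Clic6 were called and Ttr and Aqp1 were not. With 1 library left out Ttr ranged from 0.56 to 3.34 and Aqp1 from 0.37 to 1.29. Against frontal cortex DESeq2 called 4 genes in hypothalamus and 3 in amygdala, and limma voom 3 and 3. Without the libraries above 100 CPM, an alternative chosen after seeing the data, 5 genes in place of 3 were called between hypothalamus and frontal cortex and 4 in place of 2 between amygdala and frontal cortex. The share of all genes called under these alternatives was not compared, so the counts above say nothing particular about the 6. The calls of Kl, Clic6 and, for hypothalamus, Aqp1 against frontal cortex were kept under every alternative run. Aqp1 over times in frontal cortex had adjusted p of 0.00217 to 0.00304 with other settings and of 0.000530 to 0.0131 with 1 library left out. The first 8 genes by likeness shared 6 with the first 8 by Pearson's r, and 7 of the first 8 were choroid plexus genes also when deviations from group means were used, an alternative added after seeing the data. The whole 300 base promoter window also held 0 of the 3 motifs. The cause of these changes was not tested. DESeq2 was not run on tests over several contrasts, and no library was left out of the test of the intruder effect between regions. The index block could not be fitted for frontal cortex at 120 min, its average or its times. The library index cannot be told apart from condition or time there. The low counts of Kcne2, Folr1 and Aqp1 limit what their fold changes can show.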

Other observations

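In each of the 18 groups the library with the most Ttr was looked up in the other genes. It was also the highest of its group in Kcne2 in 15 groups, in Kl and in Folr1 in 12 each, in Aqp1 in 10 and in Clic6 in 8. Groups hold 3 to 6 libraries, and no test was made.

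Other marker lists gave a median rho with the 6 genes of 0.28 for 5 hippocampal genes (-0.01 to 0.36), 0.15 for 3 hypothalamic genes, -0.00 for 3 amygdala genes, -0.08 for 2 habenular genes, -0.11 for 6 thalamic genes and -0.22 for 4 cortical genes (-0.46 to 0.04). In amygdala 60 min control replicate 5, 2 of 5 hippocampal and 3 of 6 thalamic genes were the highest of their group, and 0 of 4 cortical and 0 of 4 amygdala genes were.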
